A study of Rattus norvegicus with 10 samples.

Results

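This comparison isolated the cargo of a drug carrier. It set the 2 libraries of the group SKF+Aβ+CSP-TTK21 against the 2 libraries of the group SKF+Aβ+CSP, which makes 4 of the 10 libraries of the series, and they are called the TTK21 libraries and the CSP libraries here. All 4 were made from rat hippocampal slices that received SKF, an agonist of the dopamine D1/D5 receptors, together with oligomers of the amyloid-beta peptide Aβ(1–42). CSP is a nanosphere of carbon derived from glucose. It was either empty or conjugated to TTK21, so particle, agonist and peptide were held equal between the groups. The study's slice experiments used the peptide at 200 nM and the particle at 0.36 μg/ml, in slices from male Wistar rats aged 5 to 7 weeks. For sequencing the slices were frozen 1 h after treatment and their CA1 field was cut out, with 2 slices from 2 biological samples in each repeat. The other 6 libraries were pairs of SKF+Aβ, of SKF, and of CSP-TTK21 alone, the last with neither SKF nor Aβ. They are used below only to show where each of the compared groups lay.

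TTK21 is a small molecule that activates the lysine acetyltransferases CBP and p300. These paralogous enzymes are brought to promoters and enhancers by many transcription factors, among them CREB, NF-κB and the STAT proteins, and acetylate histones there. In neurons CREB and CBP take part in the transcription that follows synaptic activity. Interferon response genes, which restrict viruses in nearly every cell type, are switched on by transcription factors that bind a promoter motif called the interferon-stimulated response element (ISRE).

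The total count was between 6753742 and 8473407 over the 10 libraries, 8473407 and 6758309 in the CSP libraries and 8151626 and 7332191 in the TTK21 libraries. At these depths 3 counts equal 0.354 to 0.444 counts per 1000000 (CPM). Levels are given as CPM normalized with edgeR's TMM factors, and differences as log2 fold changes, TTK21 minus CSP, from a single edgeR quasi-likelihood fit of all libraries. Of 32545 genes in the table, 15032 passed the filter on low counts and were tested. The spread between replicates was above that of counting alone, since chi-square divided by its degrees of freedom came to 4.73 in the CSP libraries and 9.53 in the TTK21 libraries. Because nothing states whether same-numbered libraries came from the same animals, p-values measure the spread between these libraries only. Excitatory neurons showed in their vesicular glutamate transporter Slc17a7, at 1080 to 1390 CPM in the 4 libraries. Prox1, a marker of dentate granule neurons, was also present at 182 to 218 CPM, although the methods describe a CA1 dissection. Wfs1, a marker of CA1 neurons, differed between the TTK21 libraries themselves, at 339 CPM in replicate 1 and 111 CPM in replicate 2, with 152 and 187 CPM in the CSP libraries. The part that differences in dissection played in the results was not tested.

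Among the gene lists examined, those of blood vessel endothelium, of the interferon response and of the meninges had the lowest median differences with TTK21, and that of microglia had the highest. No single gene passed the adjusted threshold of the main fit. In the edgeR fit 0 of 15032 genes (0%) had a log2 fold change beyond 1.5 together with an adjusted p-value under 0.05, and the smallest adjusted p-value was 0.254. Before adjustment 844 genes were lower with TTK21 at a p-value under 0.05 (5.61% of the genes tested) and 476 were higher (3.17%). This split depended on the scaling, since with library totals in place of TMM factors 1170 genes were lower and 230 were higher. It also depended on single libraries, with 655 lower and 570 higher without TTK21 replicate 1, 632 and 262 without TTK21 replicate 2, 631 and 417 without CSP replicate 1, and 485 and 128 without CSP replicate 2. DESeq2 gave an adjusted p-value under 0.05 to 22 of the 12409 genes for which it computed one (0.177%), and all 22 were lower with TTK21, while limma gave it to 0 of 15032. An edgeR fit of only the 4 libraries compared, which rests on fewer degrees of freedom, called 13 genes by the criterion of the main fit, all lower, with Ifit2, Ifit3, Helz2, Slfn5, Rnf213, Cxcl11, Csf3, Selp and Nos3 among them.

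In the main fit most of the larger differences were in the same direction. Beyond a log2 fold change of 1, and at an unadjusted p-value under 0.05, 309 genes were lower (2.06%) and 36 were higher with TTK21 (0.239%). Most of the 309 genes were weakly expressed, with a median level of 2.91 CPM over the 4 libraries against 20.5 CPM for all genes tested. Of the 309 genes 58 were on a gene list used here, and the rest were on none. They held 10 of the 25 tested interferon response genes and 10 of 22 endothelial markers. They also held 9 of 178 small nucleolar RNAs and 7 of 39 cytokine or adhesion receptors, against 2.06% of all genes tested. Over all tested genes, both TTK21 libraries lay below both CSP libraries in 22.8% and above them in 23.5%. The median log2 fold change over all tested genes was 0.0085 with TMM factors, which centre it near 0, and -0.060 with library totals, which gave 378 lower and 24 higher genes.

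**Figure D1:**
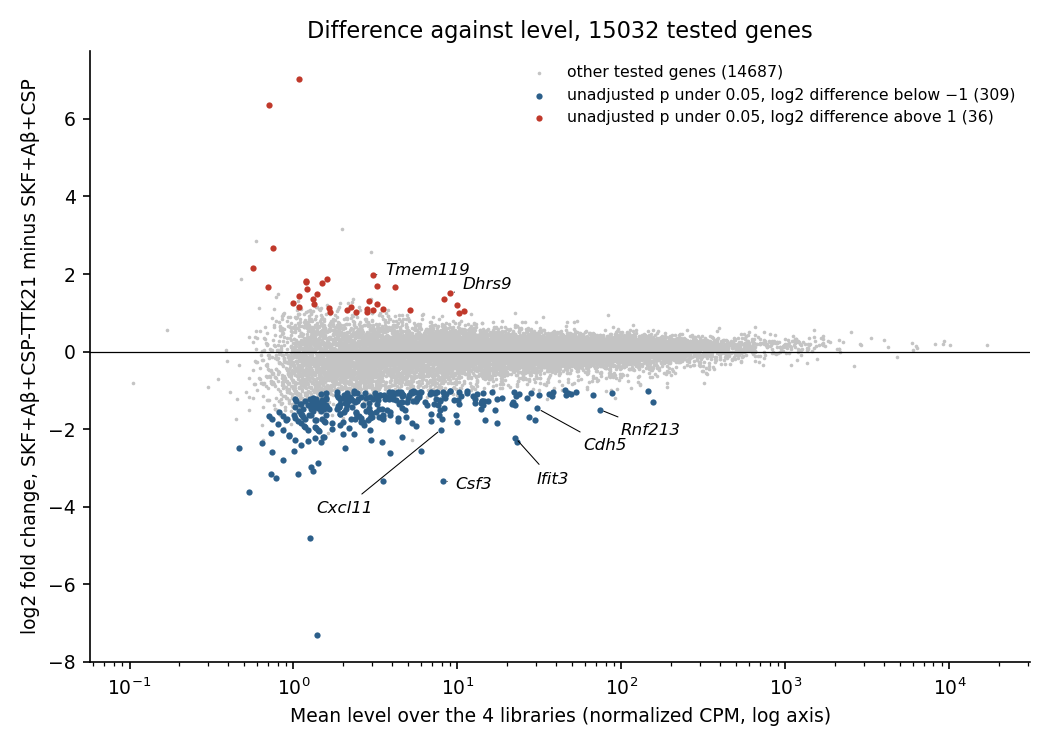
Level against difference for the 15032 tested genes. The horizontal log axis is the mean of the 4 libraries in normalized CPM and the vertical axis the log2 fold change, TTK21 minus CSP, with 309 lower genes in blue, 36 higher genes in red and the rest in grey. The blue points outnumber the red ones, while the few genes beyond 4 in either direction rest on counts in 1 library each.

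Many promoters of interferon response genes are known to carry the ISRE, and windows of 4 listed genes whose levels are described next are printed for that reason. The windows hold the 250 bases before the start of the gene in the RefSeq annotation of GRCr8, read in the direction of transcription. Capitals mark a pair of GAAA with any 2 bases between them, or of TTTC where the pair lies on the opposite strand, which is the core of an ISRE. The Ifit3 window is chr1:241527076-241527325 on the plus strand, and the windows of Rsad2, Ifi44 and Irf7, all on the minus strand, are chr6:48788121-48788370, chr2:243303841-243304090 and chr1:205800024-205800273.
Ifit3: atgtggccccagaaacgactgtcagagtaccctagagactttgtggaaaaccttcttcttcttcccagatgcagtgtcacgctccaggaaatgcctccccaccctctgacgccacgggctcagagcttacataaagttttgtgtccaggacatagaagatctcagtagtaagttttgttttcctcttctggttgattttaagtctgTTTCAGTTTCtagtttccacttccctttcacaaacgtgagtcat
Rsad2: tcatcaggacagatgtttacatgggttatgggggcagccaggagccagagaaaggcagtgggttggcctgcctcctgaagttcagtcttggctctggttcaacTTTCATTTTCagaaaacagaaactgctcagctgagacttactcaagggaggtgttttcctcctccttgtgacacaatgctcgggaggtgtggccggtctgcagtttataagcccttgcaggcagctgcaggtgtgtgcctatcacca
Ifi44: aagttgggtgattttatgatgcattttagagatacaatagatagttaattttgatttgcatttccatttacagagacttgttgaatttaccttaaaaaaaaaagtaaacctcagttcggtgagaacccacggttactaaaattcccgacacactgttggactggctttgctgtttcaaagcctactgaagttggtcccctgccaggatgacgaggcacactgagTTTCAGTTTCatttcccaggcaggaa
Irf7: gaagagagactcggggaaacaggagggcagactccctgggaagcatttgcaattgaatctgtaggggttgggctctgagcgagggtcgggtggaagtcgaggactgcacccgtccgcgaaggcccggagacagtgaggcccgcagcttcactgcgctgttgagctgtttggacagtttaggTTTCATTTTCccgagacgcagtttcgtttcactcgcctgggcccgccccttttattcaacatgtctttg
The pair begins 44 bases before the gene start in Ifit3, 147 in Rsad2, 26 in Ifi44 and 69 in Irf7. It was found on either strand in 10 of the 17 tested interferon genes that have an entry in the promoter table (58.8%), against 902 of all 27457 windows (3.29%). It was found in 0 of 15 windows of endothelial markers and 2 of 21 windows of cytokines and chemokines. A match to these letters is a description of the window, and no binding was measured. The table holds no window for Ifit2, and that of Mx1 holds no such pair.

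Interferon response genes had a negative median difference, and Ifit2 and Ifit3, whose products bind foreign RNA and hold back its translation, had the smallest p-values of the list. Ifit2 was at 47.0 and 36.9 CPM in the CSP libraries and at 16.5 and 9.27 CPM in the TTK21 libraries, or 42.0 ± 7.13 and 12.9 ± 5.11 CPM (SD, n = 2). Ifit3 was at 41.7 and 32.5 CPM with CSP and at 10.2 and 5.56 CPM with TTK21. The groups did not overlap for either gene, and the gap between groups exceeded the gap between replicates. The log2 fold change of Ifit2 was -1.70 (standard error 0.34, adjusted p = 0.336 from edgeR and 0.00624 from DESeq2). That of Ifit3 was -2.22 (standard error 0.45, adjusted p = 0.336 from edgeR, 0.193 from DESeq2 and 0.0125 from edgeR with only the 4 libraries).

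Rsad2, which encodes the antiviral enzyme viperin, was at 48.8 and 43.2 CPM with CSP and at 21.7 and 5.28 CPM with TTK21. The TTK21 libraries themselves were far apart here. Its log2 fold change of -1.75 became -3.12 without TTK21 replicate 1 and -1.09 without TTK21 replicate 2. Ifi44, an interferon-induced protein of unsettled function, was tighter, with 18.4 and 17.6 CPM against 8.44 and 8.55 CPM (log2 fold change -1.08, standard error 0.26). Usp18, the protease that removes ISG15 and dampens interferon receptor signalling, was at 7.68 and 7.18 CPM with CSP and at 2.43 and 2.14 CPM with TTK21. Mx1, a dynamin-like GTPase that blocks viruses, was at 6.85 and 6.45 CPM against 2.17 and 1.85 CPM. In each of Ifi44, Usp18 and Mx1 the replicates nearly coincided and the groups stood more than a log2 unit apart.

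Of the 28 listed interferon genes 25 were tested. Both TTK21 libraries lay below both CSP libraries for 19 of the 25 (76%, against 22.8% of all genes tested) and above them for 1, Irf8, a factor that microglia also express. An unadjusted p-value under 0.05 was reached by 14 members, all lower (56% of the list against 5.61% of all genes tested), and the median log2 fold change was -0.85. It stayed between -1.15 and -0.61 when each of the 4 libraries was left out in turn. Irf7, the interferon regulatory factor that amplifies the response, was at 7.92 and 4.98 CPM with CSP and 3.32 and 1.85 CPM with TTK21. Stat2, a transcription factor of the interferon pathway, overlapped between the groups at 40.9 and 32.7 CPM with CSP and 30.8 and 35.2 CPM with TTK21.

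Some of the lowest genes outside the list are known as interferon-induced too. Helz2, a helicase and nuclear receptor coactivator, was at 30.7 and 24.0 CPM with CSP and at 8.05 and 7.27 CPM with TTK21. Its log2 fold change of -1.84 (standard error 0.30) had an adjusted p-value of 0.254 from edgeR and 3.78e-04 from DESeq2, the smallest that DESeq2 gave. Slfn5, a Schlafen family protein, was at 25.8 and 20.1 CPM against 6.90 and 6.56 CPM, a log2 difference of -1.77 ± 0.34 (SE) and an edgeR adjusted p of 0.336 and 0.00624 from DESeq2. Rnf213, a giant ubiquitin ligase of the vessel wall and of antimicrobial defence, was at 124 and 94.7 CPM with CSP and at 45.4 and 31.9 CPM with TTK21 (log2 fold change -1.50, standard error 0.35). All these groups were separate.

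The remaining libraries show which of the compared groups stood apart. Ifit2 lay at 13.7 and 9.99 CPM in SKF+Aβ and at 15.9 and 11.9 CPM in CSP-TTK21 alone, which is the range of the TTK21 libraries. SKF was divided, with 26.0 CPM in replicate 1 and 11.5 CPM in replicate 2. Ifit3 gave the same picture, at 9.22 and 9.99 CPM in SKF+Aβ, 11.5 and 6.55 CPM in CSP-TTK21 alone, and 35.3 and 10.1 CPM in SKF. For both genes the CSP libraries and SKF replicate 1 were the high ones, and the TTK21 libraries overlapped those of SKF+Aβ. Helz2 and Slfn5 differed from this in that the TTK21 libraries, at 6.56 to 8.05 CPM, were also below both SKF+Aβ libraries, which were at 15.8 and 11.0 CPM for Helz2 and at 10.1 and 9.84 CPM for Slfn5.

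**Figure D2:**
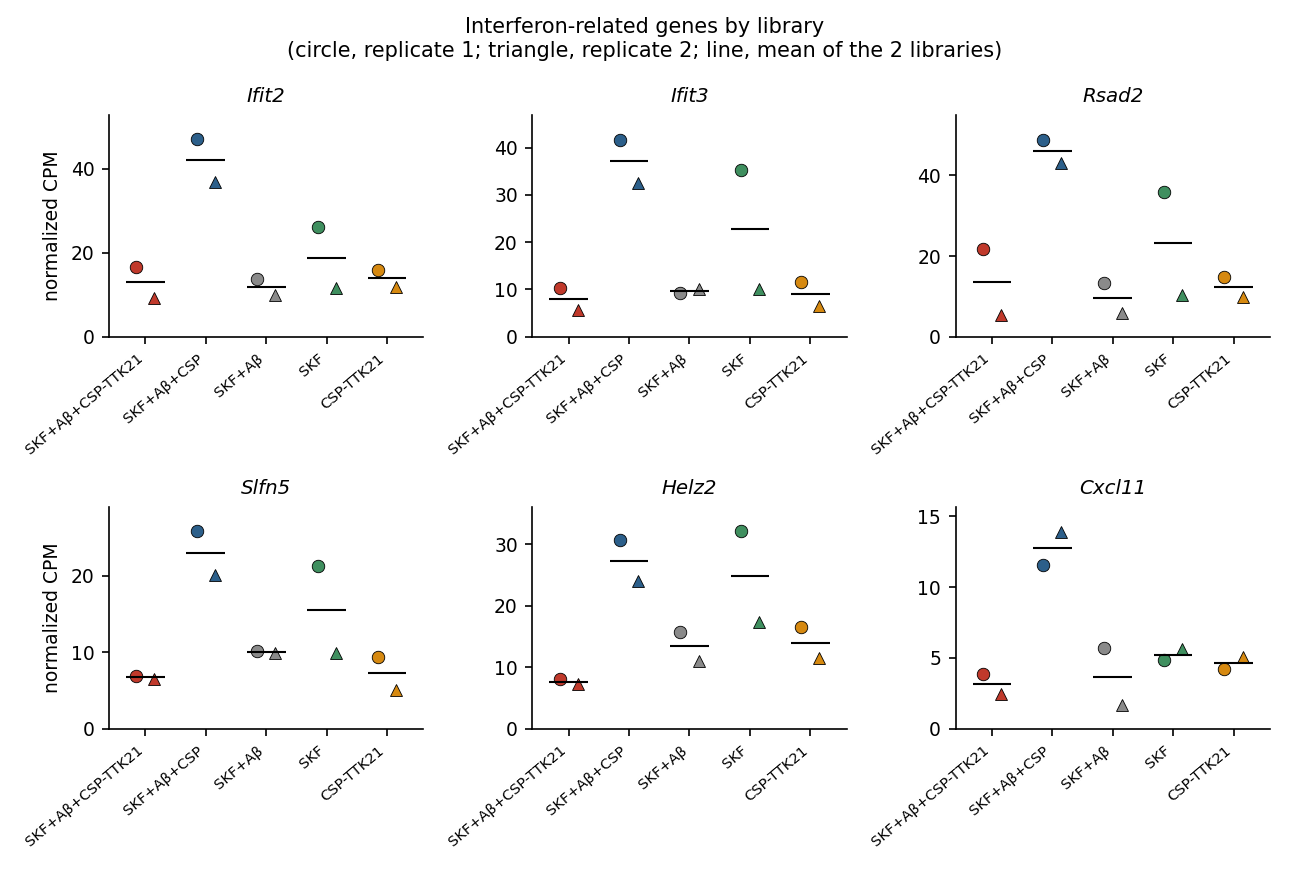
Normalized CPM of Ifit2, Ifit3, Rsad2, Slfn5, Helz2 and Cxcl11 in all 10 libraries, with circles for replicate 1, triangles for replicate 2 and a line at the mean of each group. In every panel both CSP libraries lie above both TTK21 libraries, and SKF replicate 1 lies at 4.84 to 35.9 CPM.

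Endothelial markers, the genes that define the inner lining of blood vessels, were lower by a similar amount. They had less spread between the replicates of the compared groups. Vwf, the von Willebrand factor, was at 33.2 and 28.7 CPM in the CSP libraries and at 12.7 and 12.4 CPM in the TTK21 libraries. Cdh5, the cadherin of endothelial junctions, was at 50.3 and 39.9 CPM against 14.1 and 18.7 CPM. Flt1, a receptor for vascular endothelial growth factor, was at 81.6 and 60.7 CPM against 35.3 and 34.2 CPM. The 3 genes had no overlap between groups and log2 fold changes of -1.31 for Vwf, -1.47 for Cdh5 and -1.04 for Flt1 (standard errors 0.27, 0.34 and 0.23). Their adjusted p-values were 0.336, 0.510 and 0.428 from edgeR and 0.0139, 0.0146 and 0.0193 from DESeq2.

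Nos3, the endothelial nitric oxide synthase, was at 15.2 and 16.0 CPM with CSP and at 4.22 and 4.56 CPM with TTK21, with a log2 fold change of -1.83 (standard error 0.44). The SKF replicates were far apart, at 22.8 and 7.61 CPM for Nos3 and 54.9 and 23.0 CPM for Cdh5. Abcb1a, the P-glycoprotein pump of the blood-brain barrier, was at 117 and 102 CPM against 66.6 and 71.7 CPM, a smaller log2 fold change of -0.67 (standard error 0.14). Adgrl4, an adhesion receptor of endothelial cells that is not on the list, was at 32.6 and 30.2 CPM against 15.5 and 12.8 CPM and shared the smallest adjusted p-value of the edgeR fit, 0.254. Of the 22 tested markers 20 had both TTK21 libraries below both CSP libraries (90.9%, against 22.8% of all genes tested), 0 had both above, and 16 were lower at an unadjusted p-value under 0.05 (72.7%, against 5.61%). Their median log2 fold change was -0.95, and between -1.08 and -0.84 without each library in turn. Slc2a1, the glucose transporter of brain capillaries and astrocytes, was closer between the groups, at 112 and 107 CPM with CSP and at 97.7 and 91.4 CPM with TTK21 (log2 fold change -0.21, standard error 0.14).

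Summed over the list, endothelial markers reached 660 and 545 CPM in the CSP libraries and 342 and 338 CPM in the TTK21 libraries. SKF+Aβ was at 488 and 407 CPM, SKF at 675 and 408 CPM and CSP-TTK21 alone at 458 and 379 CPM. The TTK21 libraries were thus the lowest of the series and the CSP libraries 2 of the 3 highest. In bulk tissue, fewer cells of a type cannot be told apart from less RNA of its genes per cell. Markers of the other cells of vessels and membranes were less even. Meningeal and fibroblast markers had a median log2 fold change of -0.79, with 5 of 14 lower at an unadjusted p-value under 0.05 (35.7%, against 5.61% of all genes tested). Without CSP replicate 2 the median was -0.48 and without TTK21 replicate 2 it was -1.12. Within that list the collagens Col1a1 and Col3a1 were high in CSP replicate 2 only (18.5 and 17.7 CPM against 4.84 and 5.32 CPM in CSP replicate 1). Of 13 mural cell markers 6 had both TTK21 libraries below (46.2%, against 22.8% of all genes tested). Another 2 had both above (15.4%, against 23.5%). At an unadjusted p-value under 0.05, 2 were lower (15.4%, against 5.61%) and 1 was higher (7.69%, against 3.17%). The median was -0.38, between -0.54 and -0.32 without each library. Rgs5, a pericyte regulator of G protein signalling, was at 36.2 and 29.8 CPM with CSP and 22.8 and 22.1 CPM with TTK21, whereas Notch3, a receptor of the same cells, was at 20.7 and 15 CPM with CSP and 22.9 and 28.7 CPM with TTK21. The part of vascular cell content in the interferon and cytokine differences was not tested.

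**Figure D3:**
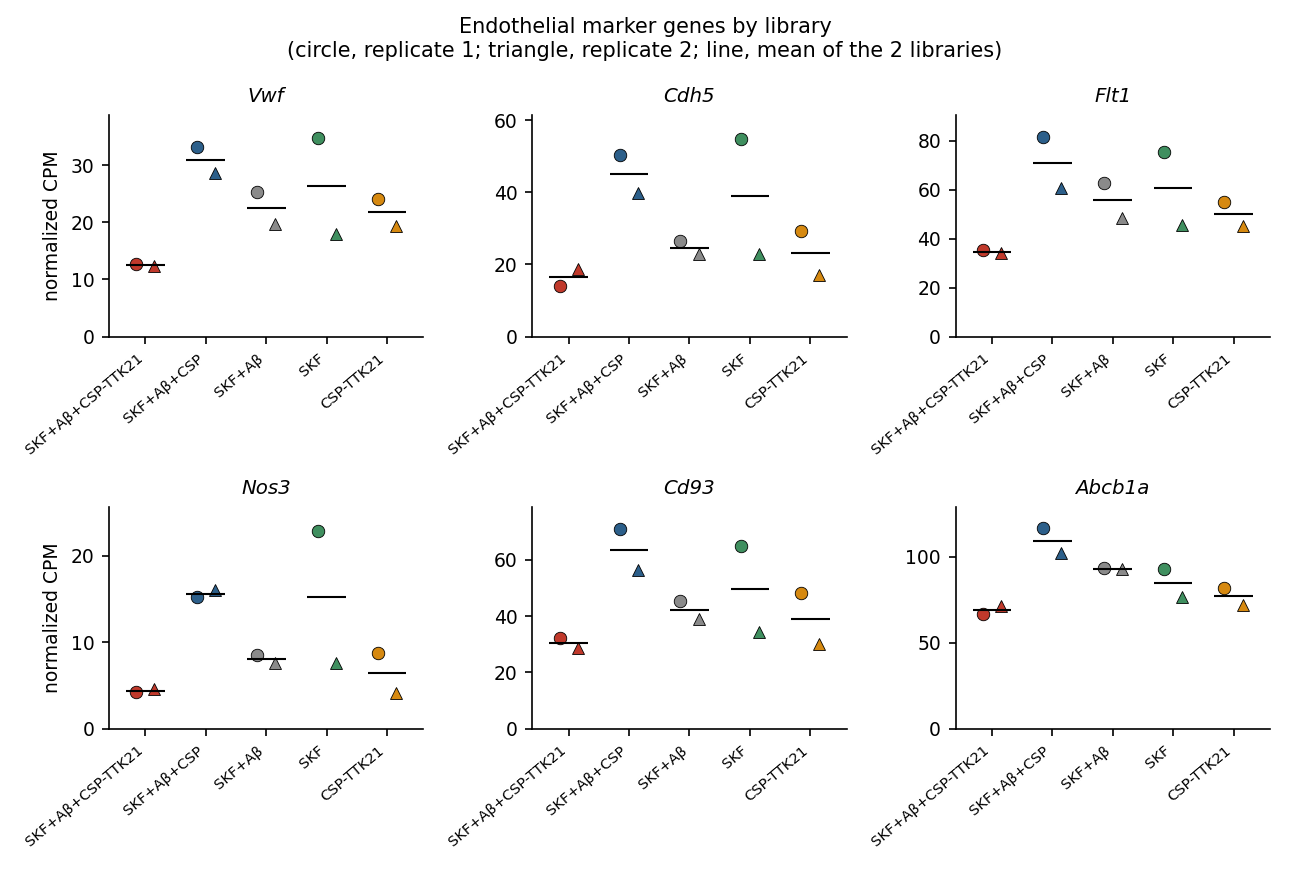
Normalized CPM of the endothelial markers Vwf, Cdh5, Flt1, Nos3, Cd93 and Abcb1a in all 10 libraries, with circles for replicate 1, triangles for replicate 2 and a line at the mean of each group. The TTK21 libraries have the lowest mean of the 5 groups in each panel, and the CSP libraries the highest.

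Cytokine receptors and adhesion receptors, counted together, differed more often than the cytokines themselves, by count and without a test of that difference. Of 39 tested cytokine and adhesion receptors 23 had both TTK21 libraries below both CSP libraries (59%, against 22.8% of all genes tested) and 13 were lower at an unadjusted p-value under 0.05 (33.3%, against 5.61%), with 0 higher and a median log2 fold change of -0.43. Selp, the P-selectin that endothelium and platelets use to capture leukocytes, was at 6.03 and 7.33 CPM with CSP and at 1.15 and 0.998 CPM with TTK21. Il1r1, the signalling receptor for interleukin 1, was at 11.6 and 13.0 CPM against 6.78 and 7.13 CPM, and Il4r, a receptor chain for interleukin 4, at 42.7 and 33.4 CPM against 19.7 and 19.4 CPM. These 3 receptors did not overlap between the groups, and their log2 fold changes were -2.61 for Selp, -0.82 for Il1r1 and -0.96 for Il4r (standard errors 0.70, 0.22 and 0.29, each with an adjusted p of 0.517 from edgeR).

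Ligands were less uniform. Of 34 tested cytokines and chemokines 4 were lower at an unadjusted p-value under 0.05 (Cxcl11, Csf3, Il4 and Cxcl10; 11.8%, against 5.61% of all genes tested) and 0 were higher, and 14 had both TTK21 libraries below both CSP libraries (41.2%, against 22.8%). Their median log2 fold change was -0.33, but -0.14 without TTK21 replicate 2 or without CSP replicate 1, and -0.60 without TTK21 replicate 1. Cxcl11, an interferon-induced chemokine that attracts T cells, was at 11.6 and 13.9 CPM with CSP and at 3.84 and 2.42 CPM with TTK21, a log2 difference of -2.01 ± 0.42 (SE) and an edgeR adjusted p of 0.336 and 0.0257 from DESeq2. Cxcl10, which binds the same receptor, was at 100 and 60.4 CPM against 54.1 and 31.1 CPM, so that the difference of the group means was smaller than the gap between the CSP libraries. Csf3, the granulocyte colony-stimulating factor, was at 18.2 and 11.6 CPM with CSP and at 2.43 and 0.428 CPM with TTK21, the last a level of 3 counts. It was at 31.7 CPM in SKF replicate 1 and 4.14 CPM in SKF replicate 2, so its replicates were far apart outside the comparison as well. For Il6 and Cxcl1, inflammatory ligands, TTK21 replicate 2 was low on its own, at 15.8 and 24.7 CPM against 46.3 and 86.0 CPM in replicate 1, with 53.3 and 52.2 CPM for Il6 and 149 and 103 CPM for Cxcl1 with CSP.

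Relb and Nfkb2 encode the subunits of the non-canonical NF-κB pathway, and Relb was at 23.0 and 21.1 CPM with CSP and at 12.9 and 11.4 CPM with TTK21, a log2 fold change of -0.86 (standard error 0.21). Nfkb2 was at 35.7 and 32 CPM against 22.8 and 19.0 CPM. The inhibitor Nfkbia, a target that reports canonical NF-κB activity, overlapped between the groups at 222 and 208 CPM with CSP and 220 and 137 CPM with TTK21. In all, 6 of 27 NF-κB and STAT3 feedback genes were lower at an unadjusted p-value under 0.05 (22.2%, against 5.61% of all genes tested) and 0 were higher. The median log2 fold change was -0.27, but -0.10 without TTK21 replicate 2.

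DESeq2 put 22 genes past its adjusted threshold (0.177% of the 12409 with an adjusted p-value). Among them were 5 of the 22 tested endothelial markers. The others included Fn1, the matrix protein fibronectin, at 82.1 and 101 CPM with CSP and 41.4 and 43.3 CPM with TTK21, and Iqgap1, a scaffold of the actin cortex, at 106 and 133 CPM against 57.9 and 55.3 CPM. Pmaip1, which encodes the pro-apoptotic protein Noxa, was at 72.2 and 52.8 CPM against 30.0 and 27.5 CPM. Atp10a, a phospholipid flippase, was at 15.2 and 13.9 CPM against 5.5 and 5.99 CPM. None of these groups overlapped, and the log2 fold changes were -1.11 for Fn1, -1.08 for Iqgap1, -1.12 for Pmaip1 and -1.35 for Atp10a. Their adjusted p-values were 0.00624 for the first 3 and 0.0467 for Atp10a from DESeq2, and 0.336, 0.356, 0.336 and 0.336 in the same order from edgeR.

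Fewer genes were higher with TTK21, and they were weakly expressed, with a median level of 1.90 CPM for the 36. Tmem119, a marker of resident microglia, was at 1.65 and 0.733 CPM with CSP and at 4.35 and 5.42 CPM with TTK21, a log2 difference of 1.98 ± 0.63 (SE) and an edgeR adjusted p of 0.523. Dhrs9, a dehydrogenase of retinoid metabolism, was at 4.25 and 5.13 CPM against 10.9 and 15.8 CPM, with a log2 difference of 1.51 ± 0.43 (SE) and an edgeR adjusted p of 0.517. Nhlh1, a helix-loop-helix factor of developing neurons, was at 6.62 and 7.04 CPM against 10.4 and 17.1 CPM. The groups did not overlap for these 3 genes. For Tmem119 and Dhrs9, however, replicates with the same treatment also differed outside the comparison. Tmem119 was at 1.11 and 4.81 CPM in SKF, 1.68 and 2.83 CPM in SKF+Aβ, and 3.38 and 7.08 CPM in CSP-TTK21 alone. Dhrs9 was at 3.46 and 9.48 CPM, 7.26 and 12.5 CPM, and 6.89 and 12.6 CPM in the same order.

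Markers of microglia, astrocytes, excitatory neurons and interneurons had positive median differences. All 14 oligodendrocyte markers overlapped between the groups. Thus 0% of them had both TTK21 libraries below or both above, against 22.8% and 23.5% of all genes tested. Of 18 tested microglial markers 11 had both TTK21 libraries above both CSP libraries (61.1%, against 23.5% of all genes tested), 3 were higher at an unadjusted p-value under 0.05 (16.7%, against 3.17%), and the median log2 fold change was 0.58. Csf1r, the growth factor receptor on which microglia depend, was at 40.8 and 34.9 CPM with CSP and at 52.4 and 77.1 CPM with TTK21. TTK21 replicate 2 carried more of this than replicate 1, and without it the list median was 0.15. Astrocyte markers had both TTK21 libraries above in 11 of 15 (73.3%) and 3 of 15 higher at an unadjusted p-value under 0.05 (20%), against 23.5% and 3.17% of all genes tested, with a median of 0.40, which was 0.26 without CSP replicate 2 and 0.23 without TTK21 replicate 2. Gja1, the astrocyte gap junction protein, was at 531 and 477 CPM against 643 and 710 CPM. Excitatory neuron markers had both above in 4 of 7 (57.1%, against 23.5% of all genes tested). Their median was 0.25, between 0.13 and 0.29 without each library in turn. Interneuron markers had both above in 8 of 11 (72.7%) and 3 higher at an unadjusted p-value under 0.05 (27.3%), against the same 23.5% and 3.17%, with a median of 0.23, and Cck, a neuropeptide of one class of interneurons, was at 76.7 and 69.5 CPM against 91.5 and 102 CPM.

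Genes of protein synthesis and energy metabolism had small positive median differences, and most members did not pass the test even before adjustment. Among 72 tested cytosolic ribosomal protein genes 53 had both TTK21 libraries above both CSP libraries (73.6%, against 23.5% of all genes tested) and 0 had both below. At an unadjusted p-value under 0.05, 17 were higher (23.6%, against 3.17%) and 1 was lower, and the median log2 fold change was 0.31, or 0.19 without CSP replicate 2. Rps14 was at 125 and 105 CPM with CSP and at 143 and 174 CPM with TTK21. Reads of these genes can be shared with their processed pseudogenes. Among 70 nuclear genes of oxidative phosphorylation 62 had both TTK21 libraries above (88.6%, against 23.5% of all genes tested), 18 were higher at an unadjusted p-value under 0.05 (25.7%, against 3.17%), and the median was 0.32. Ndufs7, a subunit of complex I, was at 19.1 and 19.9 CPM with CSP and at 26.5 and 31.9 CPM with TTK21. Of the mitochondrially encoded genes 12 of 13 overlapped between the groups. The other had both TTK21 libraries above (7.69%, against 23.5% of all genes tested), and 0 had both below (against 22.8%).

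**Figure D4:**
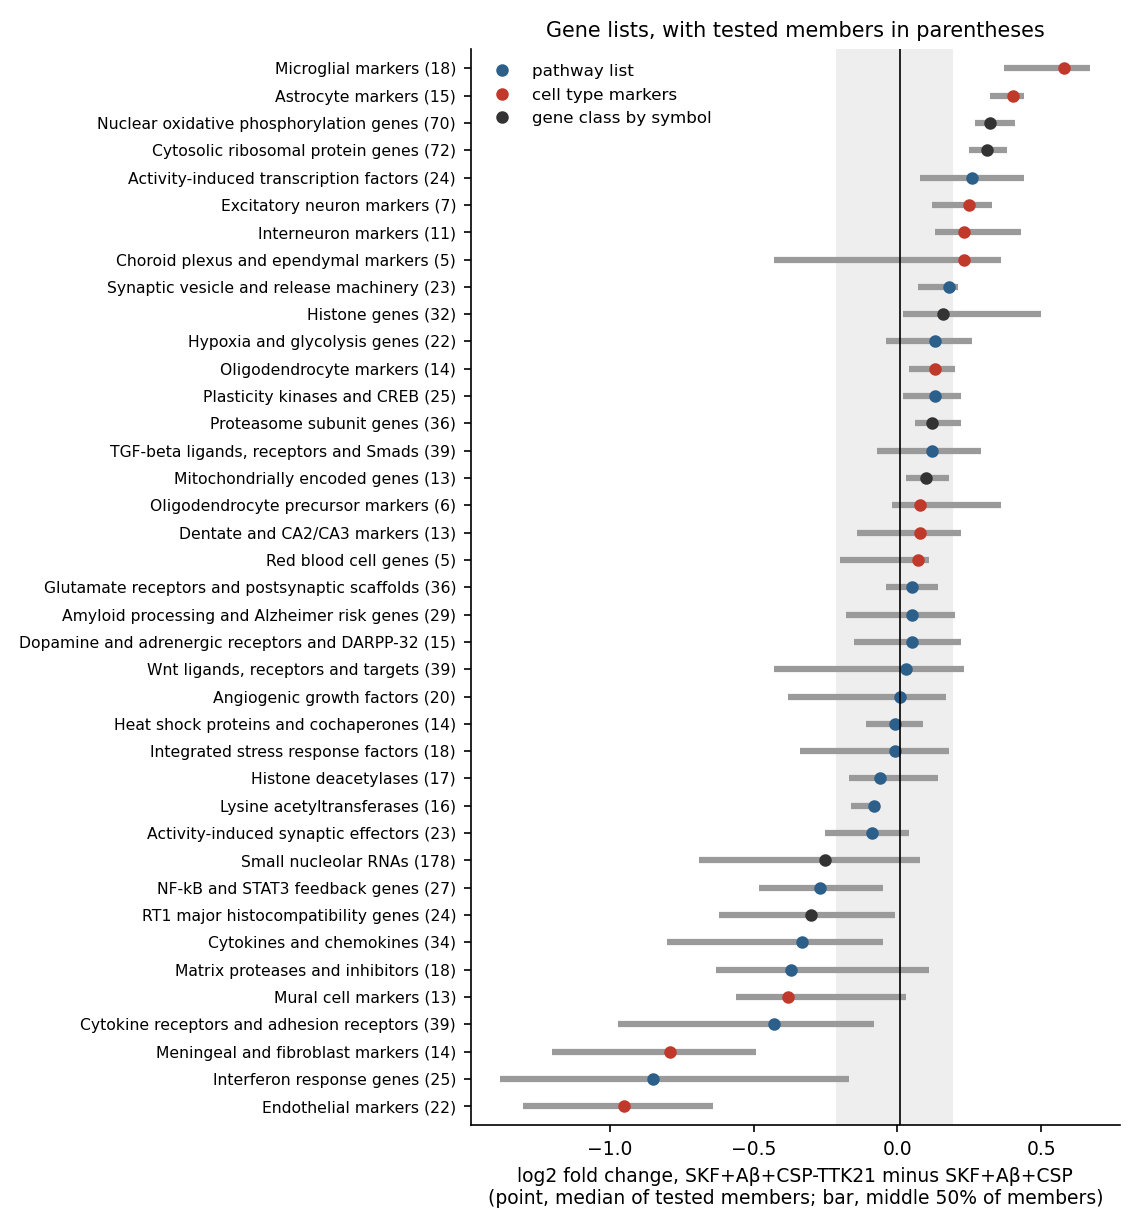
Log2 fold changes of 39 gene lists, TTK21 minus CSP, with the median of the tested members as a point and the interquartile range of the members as a bar. The line and the grey band show the median and the interquartile range of all tested genes, and endothelial markers (-0.95), interferon response genes (-0.85) and meningeal markers (-0.79) lie farthest below it, with microglial markers (0.58) farthest above.

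Transcription factors induced by neuronal activity, the class of genes most often linked to CREB and CBP, were mostly at or above the level with CSP. Fos, a subunit of AP-1, was at 308 and 323 CPM in the CSP libraries and at 427 and 528 CPM in the TTK21 libraries, a log2 difference of 0.60 ± 0.30 (SE) and an edgeR adjusted p of 0.570. Nr4a2, an orphan nuclear receptor, was at 114 and 131 CPM against 166 and 157 CPM, a log2 difference of 0.40 ± 0.14 (SE) and an edgeR adjusted p of 0.556. Klf4, a zinc finger factor, was at 36.6 and 42.2 CPM against 55.9 and 80.1 CPM. These 3 genes did not overlap between the groups.

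Of the 24 members tested 11 had both TTK21 libraries above (45.8%, against 23.5% of all genes tested), 1 had both below, 2 were higher at an unadjusted p-value under 0.05 (8.33%, against 3.17%), and the median log2 fold change was 0.26. It was 0.15 without CSP replicate 1 and 0.51 without CSP replicate 2. Npas4, a factor that calcium influx induces, was at 25 and 80.9 CPM with CSP and at 25.8 and 78.3 CPM with TTK21, a gap between replicates far wider than that between groups. Replicates were as far apart in the rest of the series, with 29.1 and 99.4 CPM in SKF+Aβ and 135 and 43.7 CPM in SKF. Fos was at 190 and 473 CPM in SKF+Aβ and 489 and 599 CPM in SKF, so the gap between the SKF+Aβ replicates exceeded the difference described here. The letters TGACGTCA, a full cyclic AMP response element, occurred in 3 of 16 promoter windows of this list (18.8%) and in 466 of all 27457 (1.70%).

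Synaptic effector genes induced by activity had a median log2 fold change of -0.09, which ranged from -0.23 without CSP replicate 1 to 0.05 without CSP replicate 2. At an unadjusted p-value under 0.05, 0 of 23 were higher and 1 was lower (4.35%, near the 5.61% of all genes tested). The exception was Plat, tissue plasminogen activator, at 168 and 172 CPM with CSP and 147 and 101 CPM with TTK21. Bdnf, the neurotrophin, overlapped between the groups at 85.2 and 144 CPM with CSP and 87.2 and 105 CPM with TTK21. Plasticity kinases had both TTK21 libraries above in 13 of 25 (52%, against 23.5% of all genes tested), 3 of 25 higher at an unadjusted p-value under 0.05 (12%, against 3.17%) and a median of 0.13, or 0.06 with library totals. Camk2a, the calcium-dependent kinase of the postsynapse, was at 1560 and 1350 CPM against 1770 and 1920 CPM.

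The genes of the enzymes that TTK21 acts on did not separate the groups. Crebbp was at 280 and 303 CPM with CSP and 282 and 278 CPM with TTK21, and Ep300 at 65.9 and 68.6 CPM against 74.1 and 60.7 CPM. Both overlapped, with log2 fold changes of -0.06 (standard error 0.12) and 0.01 (standard error 0.14). Among 16 tested acetyltransferase genes 0 reached an unadjusted p-value under 0.05, against 8.78% of all genes tested, while 6 had both TTK21 libraries below (37.5%, against 22.8%) and 0 had both above, with a median log2 fold change of -0.08, or -0.15 with library totals. Among 17 deacetylases 0 reached it, with both TTK21 libraries below in 5 (29.4%, against 22.8%) and above in 3 (17.6%, against 23.5%). Activity of the enzymes was not measured in these files.

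Among the genes that the study names in its text, few separated the groups by much. Wnt10b, a ligand of the canonical Wnt pathway, was at 1.65 and 2.05 CPM with CSP and at 0.639 and 0.855 CPM with TTK21 (log2 fold change -1.29, standard error 0.55, adjusted p = 0.564 from edgeR). The groups were separate at these low levels. Wnt3a was under the filter, with at most 1.02 CPM in the 4 libraries and 0 CPM in TTK21 replicate 2.

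Tgfb1, transforming growth factor beta 1, overlapped between the groups at 16.9 and 11.6 CPM with CSP and 16.0 and 23.8 CPM with TTK21, and the stress factor Atf5 was at 26.7 and 23.6 CPM against 27.5 and 30.8 CPM. App, the amyloid precursor, overlapped at 1320 and 1350 CPM against 1490 and 1330 CPM. S100b, a calcium-binding protein of astrocytes, was at 760 and 603 CPM against 837 and 1030 CPM. Actb, the cytoskeletal actin often used as a reference, was at 1680 and 1610 CPM against 2130 and 1830 CPM, a log2 fold change of 0.27 (standard error 0.13), which was 0.16 without TTK21 replicate 1 and 0.37 without TTK21 replicate 2. At an unadjusted p-value under 0.05, 5 of 39 Wnt genes were lower (12.8%, against 5.61% of all genes tested) and 1 was higher (2.56%, against 3.17%). Their median log2 fold change of 0.03 turned to -0.09 without TTK21 replicate 1 and -0.02 without TTK21 replicate 2. It was -0.06 without CSP replicate 2, 0.14 without CSP replicate 1 and -0.04 with library totals. Of 39 genes of the TGF-β pathway 0 were lower and 3 were higher (7.69%, against 3.17%), with a median of 0.12, or 0.07 without CSP replicate 2 and 0.05 with library totals.

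The replicates of the remaining groups fell on different sides of this comparison. Of the 309 lower genes, 74.8% were nearer to the CSP libraries in SKF+Aβ replicate 1 but 39.2% in replicate 2. The shares were 82.5% and 50.2% in the SKF replicates and 74.4% and 38.2% in the replicates of CSP-TTK21 alone. In each of the 3 remaining groups replicate 1 was nearer to the CSP libraries than replicate 2, so these genes also differed between replicates that had the same treatment. These genes were chosen for their difference between the compared groups, so the shares are a description without a test.

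**Figure D5:**
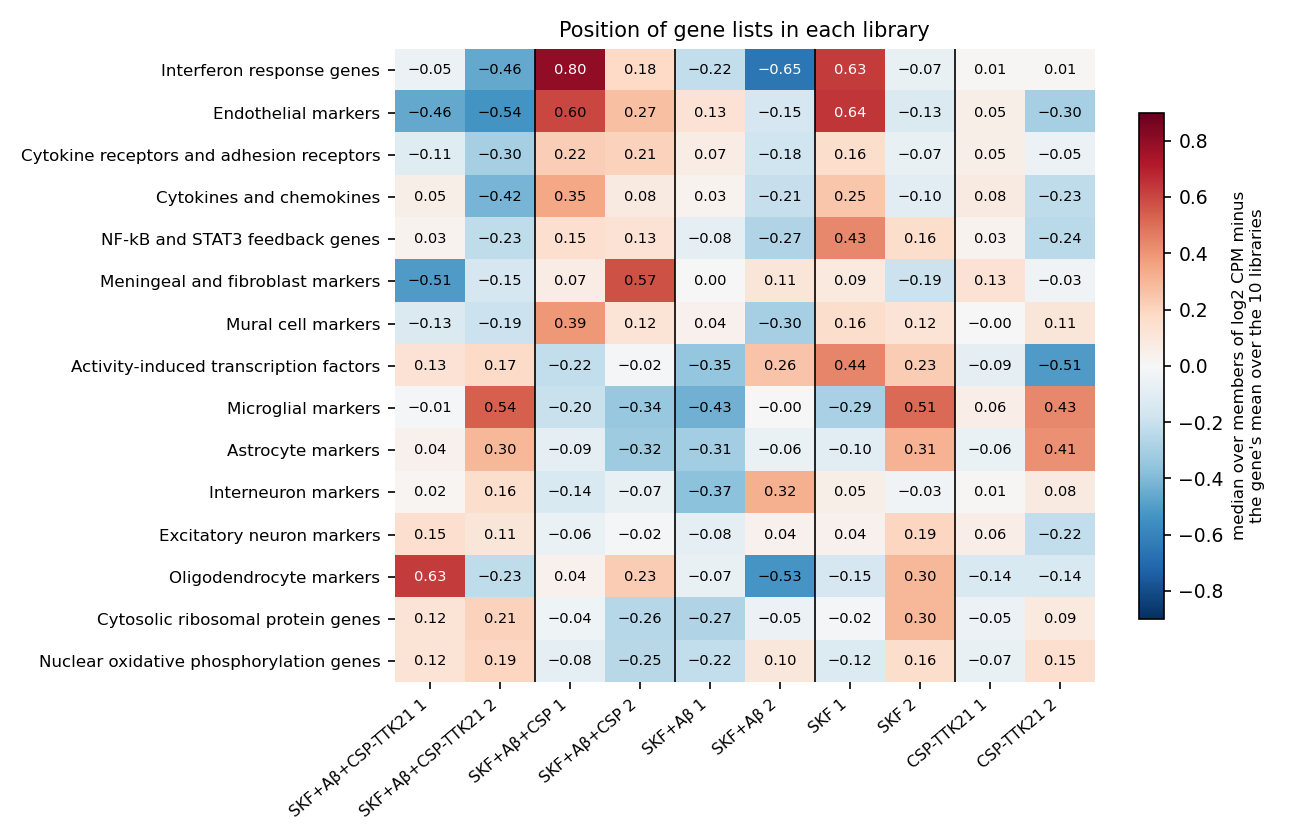
Position of 15 gene lists in each of the 10 libraries, as the median over members of log2 CPM minus each gene's mean over the libraries, in log2 units with red for higher and blue for lower. CSP replicate 1 (0.80) and SKF replicate 1 (0.63) are highest on the interferon list and SKF+Aβ replicate 2 (-0.65) is lowest, while oligodendrocyte markers separate the TTK21 replicates (0.63 and -0.23).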

How the data were processed

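The authors deposited a table of whole-number counts per gene for all 10 libraries, and its columns were matched to the labels by name. Libraries were stranded, ribosome-depleted (KAPA RiboErase) and sequenced on an Illumina HiSeq. The study's methods name Trim Galore, Samtools (which removed PCR duplicates), TopHat2 and Cufflinks, with a rat genome and a mouse genome, and the submitters' processing notes name STAR, RSEM, HISAT2, Salmon and GRCh38 with no role. Which program, annotation and strand setting made the counts is not given in the sources used here.

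Counts were fitted in R 4.3.3 with edgeR 4.0.16 (filterByExpr, TMM, quasi-likelihood test, 1 coefficient per group, all 10 libraries), and p-values were adjusted by Benjamini and Hochberg over 15032 genes. A gene was called beyond a log2 fold change of 1.5 with an adjusted p-value under 0.05. DESeq2 1.42.0, limma 3.58.1 (log2 CPM, prior count 2), a replicate block, other scalings and filters, and leaving out each library were alternatives. Scripts were tested on simulated counts. An exact permutation test of 2 against 2 cannot give a two-sided p below 0.333, so none was used.

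Members and gene lists were chosen with earlier results of these data known. Named genes were those in the study's text (not all are reported here), Crebbp and Ep300, up to 15 genes called by any fit, 12 lower and 12 higher genes with the smallest p-values at a log2 fold change beyond 1, and up to 4 genes per list. Mx1, Rsad2, Irf7, Irf8, Stat2, Cd93, Slc2a1, Nfkbia, Npas4, Prox1 and Wfs1 were chosen after their values were seen. Of 716 listed symbols 17 were not matched. Promoter windows are from RefSeq on GRCr8, which need not be the build behind the counts.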

Additional observations from a re-analysis of the deposited data

How the results depend on the processing

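The count of 0 genes past the adjusted threshold and a log2 fold change beyond 1.5 was also 0 with limma, RLE factors, library totals, a minimum of 10 counts in every library, any fold change, and without each library in turn. It was 6 with DESeq2 (with and without independent filtering), 13 with only the 4 libraries compared, 84 with no filter on low counts and 138 with an unadjusted p. With the replicate block it was 8, among them Ifit2, Ifit3, Helz2, Slfn5, Rnf213, Csf3 and Rsad2, and 86 with the 4 libraries and the replicate block. In the fits that gave 84 and 86 edgeR estimated an infinite prior degree of freedom, so all genes shared a single spread. Same-numbered libraries of the compared groups did not deviate together (r = -0.048 across genes). Over all 10 pairs of groups r was between -0.069 and 0.237, and above 0.1 in 4 pairs, all among the TTK21 libraries and the remaining groups, so the numbers did not meet the condition for a pairing, which needs every pair above 0.1, and whether they mark a shared preparation stays unknown. The 309 lower genes became 535 with no filter and 150 with the minimum of 10 counts, and 259 to 346 without each library. The 36 higher genes became 14 with DESeq2 (with and without independent filtering), 20 with limma, 70 with no filter, 11 with the minimum of 10 counts, and 37 to 81 without each library (81 without TTK21 replicate 1, 57 without CSP replicate 1).

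Signs turned in 15 of the values recomputed for single genes, none of which passed the threshold. Without each library Npas4 ranged from -1.03 to 1.05 (0.58 without TTK21 replicate 1, 1.05 without CSP replicate 2), Bdnf from -0.58 to 0.17 (0.17 without CSP replicate 2), App from -0.00 to 0.16 (-0.00 without TTK21 replicate 1) and Ep300 from -0.14 to 0.14 (-0.14 without TTK21 replicate 1, -0.03 without CSP replicate 1). Ep300 was also at -0.01 with the 4 libraries, with and without the replicate block, and with the minimum of 10 counts, at -0.00 with limma and at -0.06 with library totals. Without each library Nfkbia ranged from -0.65 to 0.03, Stat2 from -0.31 to 0.01, Prox1 from -0.05 to 0.20 and Wfs1 from -0.61 to 1.00. Of the rest, 911 kept their side of the threshold and 146, all in the same direction, passed it in an alternative. Of the list medians recomputed, 475 stayed within the spread between replicates and 71 did not. The cause of these changes was not tested. Genes near 3 counts are the least certain.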

Other observations

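Of 24 tested RT1 genes, the rat class I and class II histocompatibility genes, 8 had both TTK21 libraries below both CSP libraries (33.3%, against 22.8% of all genes tested), 1 had both above, and 5 were lower at an unadjusted p-value under 0.05 (20.8%, against 5.61%). Their median log2 fold change was -0.30, but 0.03 without CSP replicate 2, -0.09 without TTK21 replicate 1 and -0.49 without CSP replicate 1. RT1-CE7 was at 18.1 and 11.1 CPM with CSP and at 7.41 and 5.70 CPM with TTK21. These genes are near-identical copies, and reads may be split between them. Adamts9, a secreted protease of the matrix, was at 116 and 125 CPM with CSP and at 85.1 and 60.9 CPM with TTK21. SKF replicate 1 was the highest library, at 148 CPM.

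Ppp1r1b, the dopamine-regulated phosphatase inhibitor DARPP-32, was at 40.8 and 33.0 CPM with CSP and at 49.7 and 59.0 CPM with TTK21, while SKF was at 75.6 and 77.7 CPM. Apoe, the lipid carrier of astrocytes and microglia, was at 1340 and 1060 CPM against 1430 and 2120 CPM. C1ql2, a synaptic organizer of dentate granule neurons, was at 41.8 and 36.9 CPM against 56.9 and 53.6 CPM. Myelin genes followed single libraries, since oligodendrocyte markers summed to 27600 CPM in TTK21 replicate 1 and 16200 CPM in TTK21 replicate 2, around 19000 and 19600 CPM with CSP. All 14 of these markers overlapped between the groups (0% with both TTK21 libraries below or above, against 22.8% and 23.5% of all genes tested).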
